A study of Arabidopsis thaliana with 27 samples.

Results

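Small RNA of the uvr8-6 mutant of Arabidopsis thaliana was compared with that of wild type Columbia-0 in etiolated hypocotyls given the lower of 2 UV-B doses, 3000 µmol per square metre. The comparison rests on 6 of the 27 libraries of the series, 3 for each genotype, taken by their genotype and treatment labels. The other libraries are the same genotypes without UV-B and after 30000 µmol per square metre, and the xpf-3 mutant under all 3 treatments. All seeds germinated in darkness for 2.5 days on MS medium (0.5x) to which the gibberellin GA4 had been added at 100 µM, and seedlings went back to darkness after the exposure, which lasted about 5 min for the lower dose and about 45 min for the higher. Hypocotyls were cut 6 hours after UV-B according to the extraction protocol, whereas the series title gives 2 days. The labels do not say whether the 3 libraries of a group came from separate sowings. The p-values of loci and families therefore measure a spread between libraries of a group that may be technical. In the main fit this spread was estimated from all 27 libraries.

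UVR8 is the plant UV-B photoreceptor: on absorbing UV-B its dimer splits into monomers that bind the ubiquitin ligase COP1 and switch on protective gene expression, flavonoid synthesis among it. The uvr8-6 allele removes its function, and xpf-3 affects XPF, a nuclease of nucleotide excision repair. MicroRNAs are cut by DCL1 from hairpin precursors and guide AGO proteins to complementary transcripts, many of them for transcription factors. The files hold no mRNA counts, so neither the UVR8 transcript nor markers of the hypocotyl could be used to check the labels.

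Counts were given for 2071 loci: 690 of tRNA, 528 of rRNA, 378 of snoRNA, 323 of miRNA and 152 of snRNA. Library totals at the lower dose were 962976 to 1203847 counts in wild type and 1063076 to 1575377 in uvr8-6, within the range of the other 21 libraries (681228 to 1970871). miRNA counts were 40763 to 62134 in wild type and 34370 to 45264 in uvr8-6. Levels are given as CPM (read counts scaled to a common library size) after TMM scaling, which aligns libraries on the bulk of their loci. For miRNA loci and families CPM is relative to miRNA counts, and for other classes to all counts.

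The mature sequences below belong to miRNA loci that passed the test described next, and to MIR167B and MIR167D, which did not pass. They are shown because loci with the same mature sequence cannot be told apart by a read of the mature miRNA. They come from RefSeq (TAIR10.1), run 5′ to 3′, and have the seed, bases 2 to 8, in capitals.
miR390a-5p: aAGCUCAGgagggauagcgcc
miR390b-5p: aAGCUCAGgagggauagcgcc
miR156b-5p: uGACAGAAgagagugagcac
miR156c-5p: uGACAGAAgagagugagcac
miR167a-5p: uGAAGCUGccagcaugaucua
miR167b: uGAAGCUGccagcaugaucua
miR167d: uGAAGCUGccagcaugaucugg
miR396a-5p: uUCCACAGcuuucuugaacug
miR396b-5p: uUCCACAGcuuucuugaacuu
miR472-3p: uUUUUCCUacuccgcccauacc
miR822-5p: uGCGGGAAgcauuugcacaug
miR2939: uAACGCACaacacuaagccau
miR858a: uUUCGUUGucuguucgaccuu
miR824-5p: uAGACCAUuugugagaaggga
miR403-3p: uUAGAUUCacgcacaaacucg
miR171a-3p: uGAUUGAGccgcgccaauauc
miR166a-3p: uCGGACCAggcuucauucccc
miR169m: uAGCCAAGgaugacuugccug
The miR390 pair and the miR156 pair are identical, as are miR167a-5p and miR167b. miR167d shares the seed of miR167a-5p and differs from it at the 3′ end. Members of the miR396 pair share a seed with each other and also differ at the 3′ end. In RefSeq miR166a-3p is also the mature sequence of MIR166B to MIR166G, miR156b-5p that of MIR156A to MIR156F, and miR169m that of MIR169H to MIR169N. How the authors assigned reads with several matches is not given in the sources used here, so the division of counts among such loci is uncertain, and the sum of the family is given beside each of them.

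At the lower dose 8 miRNA loci were higher (7.92%) and 10 lower (9.9%) in uvr8-6 than in wild type, together 17.8% of the 101 miRNA loci with enough counts to test (edgeR quasi-likelihood test, Benjamini-Hochberg adjusted p under 0.05). All 18 had groups of libraries that did not overlap, against 34.7% of all tested loci. The median log2 change over all tested miRNA loci was -0.0078. None of the 18 changed direction under any of 12 other ways of fitting, and MIR822A, MIR390A, MIR396B and MIR472A passed under all 12, as did MIR2939 under the 11 that tested it. With RLE in place of TMM scaling 14 loci were higher and 9 lower, with DESeq2 14 and 10, and with a fit to the 6 libraries alone 13 and 6. With library sizes and TMM factors from all small RNAs 4 were higher and 6 lower, and MIR156B, MIR156C, MIR390B, MIR8175, MIR166A, MIR396A, MIR403 and MIR829A no longer passed. Below, "library sizes from all small RNAs" stands for this setting, TMM factors included. Leaving out 1 library left 9 to 15 calls, with 10 without wild-type replicate 1 and 9 without wild-type replicate 3.

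**Figure D1:**
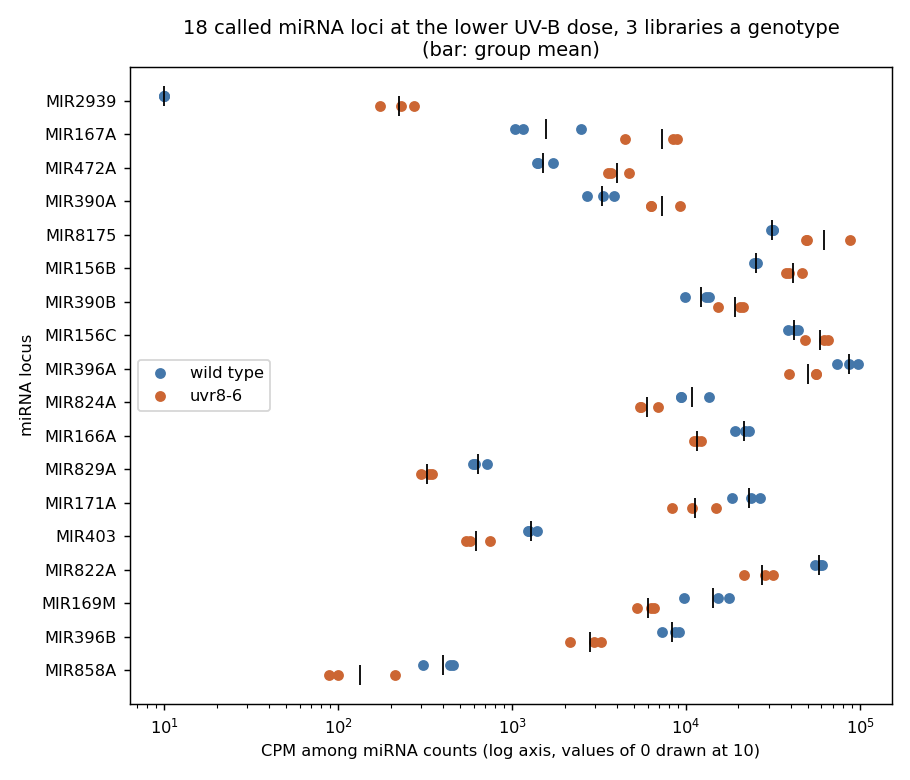
CPM among miRNA counts on a log axis for the 18 miRNA loci that passed the test, with a point per library, blue for wild type and orange for uvr8-6, and a bar at each group mean; values of 0 are drawn at 10. The groups do not overlap at any of the 18 loci, and MIR2939 is at 0 in all 3 wild-type libraries.

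MIR822A, whose miRNA targets transcripts of DC1-domain proteins, was among the 10 loci with the most counts and was lower in uvr8-6. Its level was 58490, 54968 and 60708 CPM in the 3 wild-type libraries and 28246, 21573 and 31657 CPM in uvr8-6. Every uvr8-6 library lay well below every wild-type one, a log2 change of -1.10 ± 0.21 (SE, adjusted p = 0.00239). As in any bulk sample, fewer cells that make a miRNA and less of it per cell cannot be told apart. MIR396B, a source of miR396, which targets growth-regulating factors (GRFs), stood at 7236, 9050 and 8582 CPM in wild type and 3246, 2164 and 2952 CPM in uvr8-6 (log2 change -1.57 ± 0.33, adjusted p = 0.0031). Its sister MIR396A, with more counts, went from 85811 ± 11797 to 50211 ± 9699 CPM (SD, n = 3; log2 change -0.77 ± 0.25, adjusted p = 0.0353), and did not pass when any 1 of the 6 libraries was left out (adjusted p of 0.0703 to 0.224). Added together, the MIR396 family was lower by a log2 change of -0.75 ± 0.23 (adjusted p = 0.0185). It did not pass without wild-type replicate 2 (-0.56, adjusted p = 0.108) or 3 (-0.485, adjusted p = 0.164) or uvr8-6 replicate 2 (-0.67, adjusted p = 0.0739). MIR396B made up 8.84% ± 0.66 of it in wild type and 5.26% ± 0.229 in uvr8-6 (SD, n = 3).

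MIR390A and MIR390B were both higher in uvr8-6; miR390 loaded into AGO7 starts the production of tasiRNAs from TAS3 transcripts, which act on the auxin response factors ARF2, ARF3 and ARF4. MIR390A stood at 3848, 3349 and 2689 CPM in wild type and 6244, 9221 and 6265 CPM in uvr8-6 (log2 change 1.14 ± 0.22, adjusted p = 0.00239). MIR390B stood at 13031, 13469 and 9829 CPM in wild type and 20491, 15309 and 21235 CPM in uvr8-6 (log2 change 0.65 ± 0.17, adjusted p = 0.0108). The sum of both loci, which does not depend on how reads were divided between them, was higher in all 3 uvr8-6 libraries, with a log2 change of 0.88 ± 0.17 (adjusted p = 0.000604; 0.0631 with library sizes from all small RNAs).

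MIR472A, whose miRNA cuts transcripts of coiled-coil NBS-LRR immune receptors and starts secondary siRNAs from them, was higher in uvr8-6. It stood at 1710, 1402 and 1394 CPM in wild type and 3568, 4716 and 3705 CPM in uvr8-6, so that the lowest mutant library was above the highest wild-type one (log2 change 1.41 ± 0.31, adjusted p = 0.00322). In TAIR10.1 the locus overlaps the protein-coding gene AT1G12290 on the same strand, and reads of both cannot be told apart by position where they overlap.

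MIR2939 was at 0 counts in all 3 wild-type libraries and at 7, 13 and 9 counts in uvr8-6. Set against 3 counts over the wild-type group and scaled by total counts of all small RNAs, it was 8.4-fold higher in uvr8-6. This value takes the 29 counts of uvr8-6 as exact, so it is not a strict lower bound. In edgeR's test on miRNA counts the adjusted p was 0.00382. Neither the 8.4-fold value nor the counting intervals given further on cover more than counting error. Amplified reads without molecular identifiers are not independent molecules. The same contrast appeared outside the lower dose: all 9 uvr8-6 libraries held 4 to 23 counts, and of the other 18 libraries 1, from wild type without UV-B, held 1 count. MIR2939 overlaps the protein-coding gene AT5G48280 on the opposite strand, and MIR822A and MIR824A likewise overlap AT5G03553 and AT4G24413. MIR156B overlaps the noncoding RNA gene AT4G30975 on the same strand. Whether the counting used strand is not stated in the labels.

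Among the tested miRNAs of auxin response MIR167A had the largest log2 change; miR167 targets ARF6 and ARF8, which promote growth responses to auxin. It stood at 2486, 1045 and 1149 CPM in wild type and 8375, 4452 and 8856 CPM in uvr8-6 (log2 change 2.19 ± 0.57, adjusted p = 0.0108). Without wild-type replicate 3 its adjusted p was 0.0622. MIR167B, with the same mature sequence, had a log2 change of 2.04 ± 0.75 that did not pass (adjusted p = 0.0617), and MIR167D went the other way at -0.83 ± 0.32 (adjusted p = 0.0718). The make-up of the family thus differed: MIR167A gave 31.7%, 16.4% and 20.1% of MIR167 counts in wild type and 69.4%, 52.9% and 66.5% in uvr8-6, while MIR167D gave 69.2% ± 8.95 and 22.6% ± 2.92 (SD, n = 3). The shares of neither locus overlapped between the genotypes at the lower dose. They differed in the same direction in the other conditions. Without UV-B MIR167A gave 8.54% ± 4.91 in wild type and 45.7% ± 14.2 in uvr8-6, and MIR167D 87% ± 6.58 and 46.8% ± 13.7 (SD, n = 3). After the higher dose MIR167A gave 21.7% ± 7.4 and 66.7% ± 9.46, and MIR167D 73.3% ± 7.69 and 19.5% ± 7.46.

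**Figure D2:**
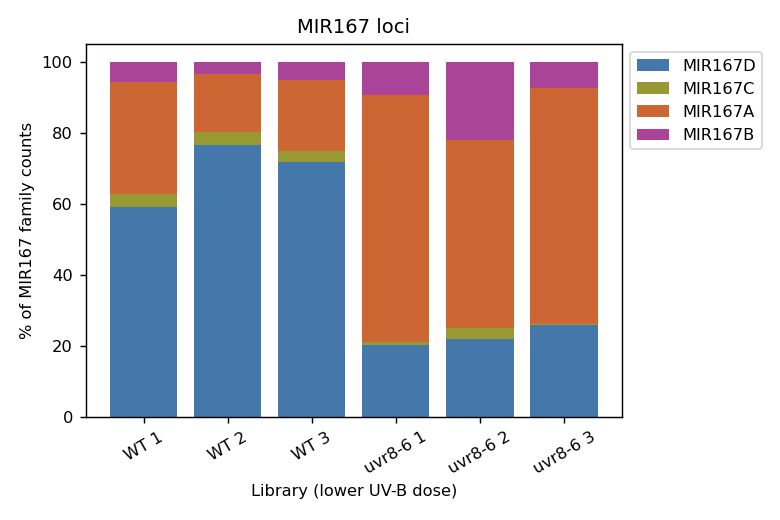
Percentage of MIR167 family counts that came from each of 4 loci, as stacked bars, in each of the 6 libraries of the lower dose. MIR167D is the largest part in all 3 wild-type libraries and MIR167A in all 3 uvr8-6 libraries.

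The summed MIR167 family was 7289, 7118 and 6402 CPM in wild type and 12626, 10728 and 14455 CPM in uvr8-6, a log2 change of 0.86 ± 0.21 (adjusted p = 0.00388; 0.151 with library sizes from all small RNAs). Without UV-B its level was 14670 ± 2475 CPM in wild type and 12523 ± 1105 in uvr8-6 (SD, n = 3), and after the higher dose 6598 ± 326 and 14494 ± 4538. In wild type the lowest dark library, 11975 CPM, was above the highest of the lower dose, 7289 CPM, whereas the uvr8-6 libraries of both conditions overlapped (11399 to 13608 and 10728 to 14455 CPM); these changes within a genotype were not tested. The genotype difference at the lower dose exceeded that in the dark by 1.09 ± 0.29 on the log2 scale (edgeR's quasi-likelihood test, Benjamini-Hochberg adjusted p = 0.0546 over 55 families), which missed the threshold, and no family passed (0%; 4 with an unadjusted p under 0.05). The adjusted p of this difference depended on the fit and ran from 0.0079 without wild-type replicate 2 of the lower dose to 0.383 with library sizes from all small RNAs; it was 0.0335 with RLE scaling, 0.00902 with DESeq2 and 0.044 with no filter. It was also under 0.05 without wild-type replicate 3 of the lower dose (0.0123), uvr8-6 replicate 2 of the lower dose (0.0328) or wild-type replicate 3 of the dark (0.025).

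Of the miRNAs of vegetative phase change, MIR156B and MIR156C were higher in uvr8-6; miR156 holds back SPL transcription factors and keeps plants juvenile. MIR156B stood at 25144, 24609 and 25476 CPM in wild type and 37488, 38853 and 46477 CPM in uvr8-6 (log2 change 0.71 ± 0.15, adjusted p = 0.00322). MIR156C had a log2 change of 0.49 ± 0.17 (adjusted p = 0.0496), which did not pass without wild-type replicate 2 (0.0557) or 3 (0.0931), and the abundant MIR156F one of 0.59 ± 0.25 that did not pass (adjusted p = 0.103). MIR156A, MIR156B, MIR156C and MIR156F share 1 mature sequence, so their division is uncertain. MIR156A gave 18.1% ± 1.46 of family counts in wild type and 12.2% ± 0.68 in uvr8-6, and MIR156B 16.1% ± 1.73 and 19% ± 2.79 (SD, n = 3). The family sum was higher by 0.55 ± 0.17 (adjusted p = 0.0185), and did not pass without wild-type replicate 1 (0.0907), with no filter (0.152) or with library sizes from all small RNAs (0.3). These differences depend on the scaling: with library sizes from all small RNAs MIR156B kept a log2 change of 0.61 but had an adjusted p of 0.159.

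Of loci that target other transcription factors, 4 more were lower in uvr8-6. MIR171A, whose miRNA targets GRAS factors of the HAM group, went from 22853 ± 4099 to 11279 ± 3288 CPM, and MIR166A, whose miRNA targets HD-ZIP III factors of leaf polarity, from 21409 ± 2007 to 11605 ± 515 CPM (SD, n = 3). Their log2 changes were -1.02 ± 0.28 (adjusted p = 0.0132) and -0.88 ± 0.24 (adjusted p = 0.011). MIR171A did not pass without wild-type replicate 1 or 2 or uvr8-6 replicate 1 or 2, and MIR166A passed on leaving out wild-type replicate 2 but on leaving out none of the other 5 libraries. The MIR166 family as a whole did not pass and its groups overlapped (log2 change -0.34 ± 0.17, adjusted p = 0.132). Within it MIR166A gave 60.6% ± 8.73 of counts in wild type and 44.3% ± 3.87 in uvr8-6, and MIR166B, with the same mature sequence, 24% ± 7.12 and 34.4% ± 6.64 (SD, n = 3), so a lower level of miR166 is not shown. The MIR171 family, nearly all of it MIR171A, was lower by -0.88 ± 0.29 (adjusted p = 0.0228), and did not pass without wild-type replicate 2 or uvr8-6 replicate 1 or 2. MIR169M, one of 14 loci of the miR169 family of NF-YA regulators, stood at 9690, 17554 and 15354 CPM in wild type and 5228, 6300 and 6506 CPM in uvr8-6 (log2 change -1.24 ± 0.32, adjusted p = 0.0108), and did not pass without wild-type replicate 3 (0.0539) or uvr8-6 replicate 1 (0.0809). It was the only one of those 14 to pass, and MIR169C, the member with the most counts, had a log2 change of -0.67 ± 0.26 (adjusted p = 0.0779). MIR169M gave 5% ± 1.35 of family counts in wild type and 2.64% ± 0.442 in uvr8-6 (SD, n = 3), and the family as a whole did not pass, with overlapping groups (log2 change -0.20 ± 0.23, adjusted p = 0.528). MIR824A, whose miRNA targets the MADS-box gene AGL16, a regulator of stomatal lineage and flowering, had a log2 change of -0.86 ± 0.23 (adjusted p = 0.011); without wild-type replicate 1 the change was -0.52 (adjusted p = 0.0832) and without uvr8-6 replicate 1 it was -0.65 (adjusted p = 0.0768).

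MIR858A, whose miRNA targets MYB factors of phenylpropanoid and flavonoid synthesis, was at 459, 309 and 440 CPM in wild type and 99, 88 and 211 CPM in uvr8-6. The log2 change was -1.62 ± 0.46 (adjusted p = 0.0151), and it passed without wild-type replicate 2 or uvr8-6 replicate 3 but not without any of the other 4 libraries (adjusted p of 0.0832 to 0.118). Without UV-B the 2 genotypes had a log2 difference of -0.06 ± 0.45, and after the higher dose of -1.40 ± 0.47. Of the 18 loci it had the smallest p for a difference between the lower dose and the dark, -1.56 ± 0.64 on the log2 scale, which did not pass edgeR's test after adjustment (adjusted p = 1). MIR403, whose miRNA targets the antiviral AGO2, went from 1393, 1235 and 1247 CPM in wild type to 743, 545 and 572 CPM in uvr8-6 (log2 change -1.06 ± 0.29, adjusted p = 0.011), and passed without wild-type replicate 2 or uvr8-6 replicate 1 but not without any of the other 4 libraries (adjusted p of 0.0728 to 0.118).

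The remaining called loci were MIR829A, lower by a log2 change of -0.97 ± 0.32 (adjusted p = 0.0366), and MIR8175, higher by 0.98 ± 0.33 (adjusted p = 0.0432). MIR829A passed under 1 of the 12 other fits and under none that left out a library, and MIR8175 passed on leaving out uvr8-6 replicate 1 but none of the other 5 libraries (adjusted p of 0.064 to 0.148). Of the 10 loci with the most counts, MIR158A, MIR169A and MIR169B had log2 changes of -0.20 ± 0.28, 0.02 ± 0.36 and 0.15 ± 0.39, and the groups overlapped at each.

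Grouped by targets, the lists of miRNA loci gave these counts. Of 13 tested loci of auxin response 3 were higher (MIR390A, MIR390B and MIR167A) and none lower, with a median log2 change of -0.18, and of 12 of vegetative phase change 2 were higher, with a median of 0.48. Of 18 loci that target growth and polarity factors 4 were lower and none higher, with a median of -0.006. Of 5 loci acting on the silencing machinery (DCL1, AGO1, AGO2) MIR403 was lower, all 5 had negative log2 changes and the median was -0.40. Of 7 triggers of secondary siRNAs 3 were higher (MIR472A and the MIR390 pair), with a median of -0.31, and of 16 young Brassicaceae-specific loci 1 was higher and 3 lower, with a median of -0.36. Of 14 miR169 loci 1 was lower, with a median of -0.059, the single tested locus of the phenylpropanoid MYB list was MIR858A and that of the immune receptor list MIR472A. The copper list had 1 tested locus (log2 change 0.82), the phosphate and sulfate list 2 (median -1.20) and the light-regulated list 2 (median -0.23), and none of these passed. Of MIR8175 and MIR8176, listed together because their status as miRNAs is doubtful, the first was higher, with a median of 0.83. Over all 101 tested loci 17.8% passed and the median was -0.0078.

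With the loci of each numbered family added together, 10 families were higher and 10 lower of 55 tested (36.4%), with a median log2 change of 0.058 over all 55. Of the 20, 18 had groups that did not overlap, against 41.8% of all families; MIR8176 and MIR399 overlapped. MIR472, MIR822, MIR2939, MIR824 and MIR858 passed in every other fit that tested them. Families that passed without a called locus were MIR842, MIR846 and MIR395 (higher), MIR8176 (higher), and MIR854, MIR399 and MIR162 (lower). MIR395 acts on sulfate assimilation and MIR399 on the phosphate regulator PHO2; their log2 changes were 1.56 ± 0.56 (adjusted p = 0.0324) and -0.80 ± 0.28 (adjusted p = 0.026). MIR395 rests on 4, 4 and 4 counts in wild type and 6, 10 and 13 in uvr8-6, and passed in 4 of the 11 other fits that tested it (adjusted p up to 0.224, without uvr8-6 replicate 3). MIR399 passed in 6 of 12 (adjusted p up to 0.239, without wild-type replicate 3). Of the rest, MIR842 passed in 4 of 11, MIR854 in 6 of 11, and MIR846, MIR8176 and MIR162 in 6, 8 and 3 of 12. With library sizes from all small RNAs 2 families were higher and 8 lower, and leaving out 1 library left 10 to 16 calls (12 without wild-type replicate 2, and 10 and 12 without uvr8-6 replicates 2 and 3).

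The same genotypes were compared without UV-B and at the higher dose, in libraries separate from those of the lower dose. Of the 18 loci called at the lower dose 12 were also called without UV-B, which is 66.7% of these and 80% of the 15 called there (14.9% of 101 tested). With the higher dose 15 were shared, 83.3% of the 18 and 65.2% of the 23 called there (22.8%). All 18 had the same sign of log2 change in both. Across all 101 loci Pearson's r of the log2 changes at the lower dose was 0.27 with those in the dark and 0.49 with those at the higher dose, and over the 91 loci with a mean of at least 100 CPM it was 0.56 and 0.69. These correlations describe loci that share their libraries. In the table of all small RNAs 48 of the 71 loci called at the lower dose were also called in the dark (67.6% of them, and 37.2% of the 129 called there, 11.6% of those tested) and 39 at the higher dose (54.9%, and 33.1% of 118, 10.6%). MIR403, MIR829A and MIR171A were called at the lower dose and in neither other condition, where their log2 changes had the same sign.

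**Figure D3:**
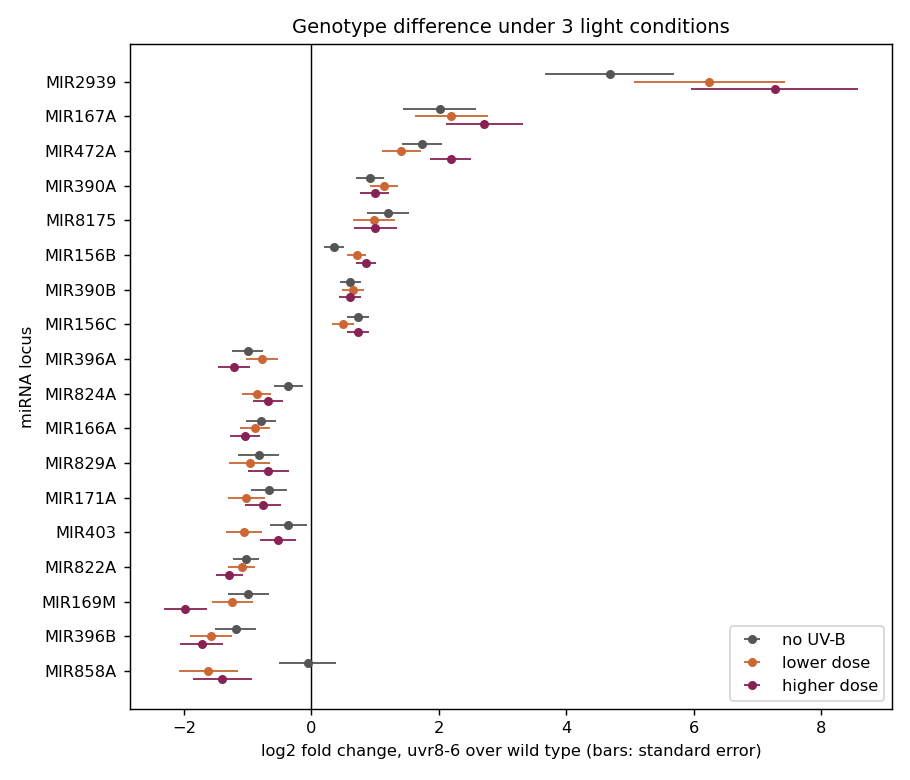
Log2 fold change of uvr8-6 over wild type with its standard error for the 18 miRNA loci called at the lower dose, without UV-B (grey), at the lower dose (orange) and at the higher dose (purple). All points of a locus lie on the same side of 0, and MIR858A without UV-B is at -0.06.

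The difference between these genotype contrasts was tested directly. No miRNA locus passed for the lower dose against the dark (0% of 101; 3 with an unadjusted p under 0.05, and 0 called by DESeq2) or against the higher dose (0%; 2 with an unadjusted p under 0.05, and 0 called by DESeq2). Over the 18 loci these differences ran from -1.56 to 1.56 on the log2 scale against the dark and from -1.03 to 0.74 against the higher dose. A miss at this threshold does not show that the contrasts are equal. In the table of all small RNAs no locus passed against the dark with edgeR (0% of 1109; 57 with an unadjusted p under 0.05), whereas DESeq2 called 30, of which 26 were tRNA loci and 25 had a group of libraries at 0.

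Against the second reference at the same dose, xpf-3, 11 miRNA loci were higher and 12 lower in uvr8-6 (22.8% of 101). The 5 with the smallest p were MIR472A (log2 change 1.80 ± 0.32), MIR390B (0.87 ± 0.17), MIR156B (0.78 ± 0.15), MIR399B (-1.65 ± 0.33) and MIR169M (-1.60 ± 0.33), each with an adjusted p of 0.00109 to 0.00141. This comparison shares the uvr8-6 libraries with that against wild type. MIR396A had a log2 change of -0.77 against wild type and 0.03 against xpf-3 (adjusted p = 0.973), and MIR8175 one of 0.98 and -0.32 (adjusted p = 0.506). MIR822A had -1.10 and -0.88, and MIR167A 2.19 and 1.67. In the fit of families, with its own TMM factors, the log2 change against xpf-3 was 0.24 for MIR396 and 0.01 for MIR8175. The sign for MIR8175 in this comparison thus depends on the scaling. Between xpf-3 and wild type no miRNA locus passed with edgeR (0%; 9 with an unadjusted p under 0.05; other tools were not run). Of the 55 families 1 passed there (1.82%): MIR396 was lower in xpf-3 than in wild type by a log2 change of -0.99 ± 0.23 (adjusted p = 0.0142), beside -0.75 ± 0.23 for uvr8-6, 2 comparisons that share the wild-type libraries.

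Across all classes of small RNA, 30 loci were higher (2.71%) and 41 lower (3.7%) in uvr8-6 at the lower dose, together 6.4% of 1109 tested, with a median log2 change of -0.02 over all of them. All 71 had groups that did not overlap, against 28.6% of all tested loci. The TMM factors behind these values were 1.24, 1.1 and 1.03 in wild type and 0.917, 0.959 and 0.899 in uvr8-6. Scaling by total count alone, which was not run for single loci, would shift the log2 changes downward. The split into higher and lower loci thus depends on the scaling. By class, 25 snoRNA loci were higher and 13 lower of 318, 2 tRNA loci were higher and 10 lower of 481, 13 rRNA loci were lower and none higher of 112, and no snRNA locus passed of 97. miRNA loci, tested here against the library size of all small RNAs, made up the rest, with 3 higher and 5 lower of 101. DESeq2 called 145 loci, and a fit to the 6 libraries alone called 27. Leaving out 1 library gave 33, 41 and 25 calls for wild-type replicates 1, 2 and 3, and 32, 37 and 27 for uvr8-6 replicates 1, 2 and 3.

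**Figure D4:**
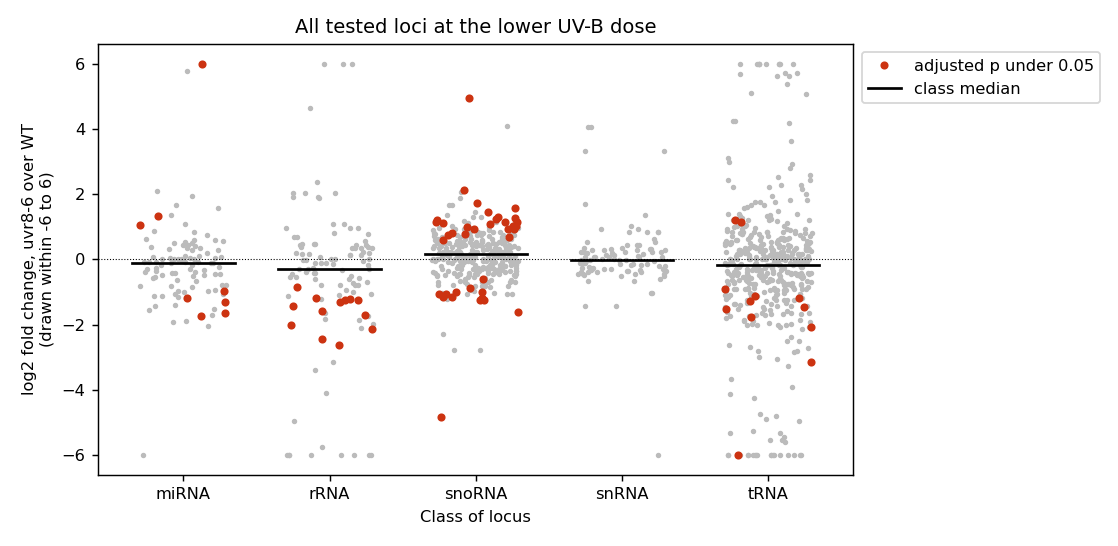
Log2 fold change of uvr8-6 over wild type at the lower dose for the 1109 tested loci by class, drawn within -6 to 6, with loci that passed the test in red and the median of each class as a line. Red points lie mostly above 0 among snoRNA loci, below 0 among tRNA loci and only below 0 among rRNA loci, and there are none among snRNA loci.

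snoRNAs guide the chemical modification of ribosomal and spliceosomal RNA, and plants encode many of them in clusters. Some loci are listed under both an AT and an ENSRNA identifier with counts that differ by at most 2%; joined, 22 were higher and 9 lower. The smallest p-values were those of snoR158b (AT2G08760) and snoR158a (AT2G08770), near each other on chromosome 2. snoR158b stood at 58.3, 59.0 and 64.3 CPM of all small RNAs in wild type and 241.0, 205.9 and 345.9 CPM in uvr8-6 (log2 change 2.12 ± 0.28, adjusted p = 0.000222). snoR158a stood at 634.8, 590.3 and 564.4 CPM in wild type and 1650.9, 1574.0 and 2090.8 CPM in uvr8-6 (log2 change 1.57 ± 0.21, adjusted p = 0.000222). Both were higher in uvr8-6 in the dark and at the higher dose as well, by 2.16 and 2.16 for snoR158b and by 1.33 and 1.40 for snoR158a. Of neighbours within 1000 bases, snoR149 (AT2G08765) was higher by 0.68 ± 0.20 (adjusted p = 0.0475), and AT2G35742, AT2G35744 and AT2G35747 had log2 changes of 0.45, 0.093 and 0.21 that did not pass.

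Other snoRNA loci that were higher included AtsnoR84 (AT1G09333, log2 change 1.74 ± 0.33), snoR121 (ENSRNA049495654, 1.46 ± 0.40), AtsnoR90 (AT2G08580, 1.31 ± 0.26), AtsnoR96 (AT5G09130, 1.27 ± 0.27), AtsnoR89 (AT3G03585, 1.25 ± 0.26) and AtsnoR88-1 (AT5G08865, 1.15 ± 0.23). snoR121 was the most abundant of them, at 1227, 1573 and 1691 CPM in wild type and 4048, 4920 and 3412 CPM in uvr8-6. Its adjusted p was 0.0329, and it passed under 6 of 12 other fits. U49.1, at 0, 0 and 1 counts in wild type and 8, 24 and 12 in uvr8-6, had a ratio of 38.2 with a 95% counting interval of 6.51 to 1540 (exact binomial, counting error only).

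A cluster of 3 snoRNAs on chromosome 5 was lower in uvr8-6, and its members are shown because they are near copies of each other. The sequences are from RefSeq (TAIR10.1), minus strand, written 5′ to 3′, with the C box (GTGATGA) and the D box (CTGA) in capitals, the motifs that mark snoRNAs guiding 2′-O-methylation.
AtsnoR28-1a: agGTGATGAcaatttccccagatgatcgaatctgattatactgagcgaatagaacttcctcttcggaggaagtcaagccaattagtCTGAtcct
AtsnoR28-1b: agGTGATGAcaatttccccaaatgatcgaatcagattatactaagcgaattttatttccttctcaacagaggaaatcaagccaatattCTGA
AtsnoR28-1c: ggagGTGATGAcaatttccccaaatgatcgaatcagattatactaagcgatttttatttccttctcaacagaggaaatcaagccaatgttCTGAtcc
AtsnoR28-1a (AT5G02675) stood at 229.9, 178.7 and 158.7 CPM in wild type and 79.98, 91.4 and 68.0 CPM in uvr8-6, and AtsnoR28-1b (AT5G02665) at 337.2, 235.3 and 213.9 CPM and 110.8, 135.8 and 103.5 CPM. The log2 changes were -1.24 ± 0.23, -1.17 ± 0.29 and, for AtsnoR28-1c (AT5G02655), -1.07 ± 0.30, with adjusted p of 0.00287, 0.0162 and 0.0407. AtU36a-3 (AT4G04475, -1.001 ± 0.24) and AtU18-1 (AT5G02305, -0.87 ± 0.20) were lower too. AtsnoR24a (AT4G08175) held 22, 28 and 19 counts in wild type and 0, 1 and 1 in uvr8-6, a ratio of 0.0252 with a 95% counting interval of 0.00299 to 0.0945 (edgeR adjusted p = 0.0475). Its counts varied widely elsewhere: 40, 36 and 0 in xpf-3 at the same dose, and 1, 55 and 14 in wild type and 3, 0 and 15 in uvr8-6 after the higher dose. Without UV-B they were 15, 12 and 16 in wild type and 3, 6 and 6 in uvr8-6. The neighbours AtsnoR24b, AtsnoR24c and AtsnoR24d had log2 changes of -0.24 to -0.54 that did not pass.

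Single tRNA loci were hard to read. Identical copies exist, and counts of single loci varied widely from library to library, but a link between these was not tested. The tRNA-Val locus ENSRNA049492665 held 217, 126 and 43 counts in wild type and none in uvr8-6 at the lower dose. Set against 3 counts over the uvr8-6 group it was 148-fold lower by total counts, with the wild-type counts taken as exact. In uvr8-6 it held 0, 1 and 94 counts without UV-B and 86, 221 and 179 after the higher dose. In wild type these counts were 106, 0 and 67, and 222, 282 and 70. At the lower dose ENSRNA049492718, another tRNA-Val locus, went the other way, with 80, 2 and 0 counts in wild type and 329, 227 and 218 in uvr8-6. Whether these loci are copies of each other was not checked. Summed over the 30 tRNA-Val loci the counts were 1351, 1142 and 932 in wild type and 1544, 1793 and 811 in uvr8-6, and the groups overlapped. Loci were therefore added by isotype, the amino acid that the tRNA carries, and these sums are a description with no test.

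tRNA-Pro had the lowest ratio of uvr8-6 to wild type of the 20 isotypes. Its 66 loci summed to 829.2, 1003.4 and 1174.0 CPM in wild type and 429.7, 401.9 and 413.0 CPM in uvr8-6, a ratio of 0.414, and to 1389.3 and 455.4 CPM on average in the dark and 1253.7 and 587.0 CPM after the higher dose. Of its 38 tested loci 31 had negative log2 changes and 3 positive ones, with a median of -1.22, against a median of -0.16 over all tRNA loci. The locus AT2G33950, with a CGG anticodon, held 155, 170 and 193 counts in wild type and 19, 16 and 20 in uvr8-6 (log2 change -3.13 ± 0.45, adjusted p = 0.000297). It is shown beside AT2G33940, one of the copies with a TGG anticodon, since it differs from that copy at T33C and A43G, counted from the first base of the gene, and no other tRNA locus matched in RefSeq has its sequence, whereas 33 share that of AT2G33940. Both are on the plus strand of chromosome 2 in RefSeq (TAIR10.1), with the anticodon in capitals.
AT2G33940: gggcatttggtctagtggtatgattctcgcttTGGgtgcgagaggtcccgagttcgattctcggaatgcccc
AT2G33950: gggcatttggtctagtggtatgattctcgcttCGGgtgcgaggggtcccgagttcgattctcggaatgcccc
AT2G33950 was lower in uvr8-6 in the dark as well (log2 change -4.12) and at the higher dose (-1.67).

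Of the 20 isotypes, 12 had sums that did not overlap between the genotypes (60%), 7 higher and 5 lower in uvr8-6. With libraries scaled by their total count 11 did not overlap, 3 higher and 8 lower, so the direction of isotypes near a ratio of 1 depends on the scaling. On both scales the groups did not overlap for tRNA-Pro, tRNA-Arg, tRNA-Cys, tRNA-Asp and tRNA-Leu, which were lower, and for tRNA-Glu, tRNA-Trp and tRNA-Lys, which were higher. With TMM scaling the ratios of the lower ones were 0.414, 0.622, 0.684, 0.809 and 0.809, and by total count 0.344, 0.519, 0.561, 0.662 and 0.669. The ratios of the higher ones were 1.59, 1.52 and 1.45 with TMM scaling and 1.3, 1.25 and 1.19 by total count. tRNA-Arg summed to 16202, 17482 and 27067 CPM in wild type and 13031, 12116 and 12651 CPM in uvr8-6, and 27 of its 33 tested loci had negative log2 changes. tRNA-Cys summed to 549.7, 504.1 and 514.2 CPM in wild type and 356.8, 374.8 and 341.1 CPM in uvr8-6, and 3 of its 12 tested loci passed, all lower, against 6.4% of all tested loci; 5 of the 12 had positive log2 changes and the median was -0.20. The plastid-encoded TRNK was higher by a log2 change of 1.14 ± 0.34 (adjusted p = 0.0486).

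**Figure D5:**
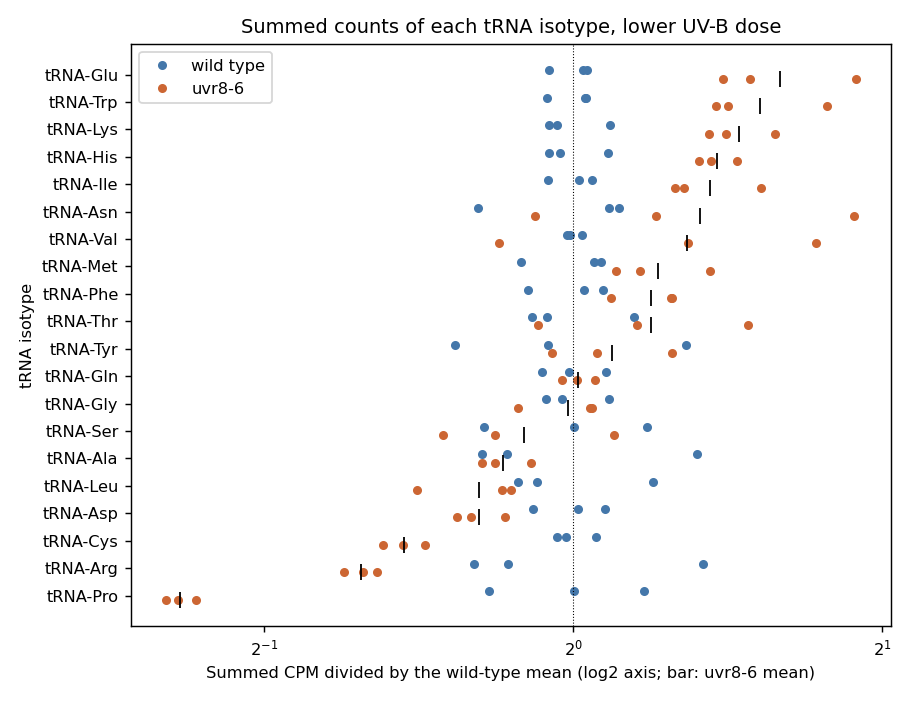
Summed CPM of each tRNA isotype divided by its wild-type mean, on a log2 axis, with a point per library of the lower dose, blue for wild type and orange for uvr8-6, and a bar at the uvr8-6 mean. tRNA-Pro is lowest in uvr8-6, at 0.414 of the wild-type mean, and tRNA-Glu is highest, at 1.59.

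The 13 called rRNA loci were all annotated as 5S rRNA, which is encoded in long repeats, and all were lower in uvr8-6. Of 92 tested 5S loci 63 had negative log2 changes, with a median of -0.56. Summed over all 508 5S loci the level was 10672, 13094 and 9590 CPM in wild type and 9450, 5527 and 10406 CPM in uvr8-6, and the groups overlapped; scaled by total count they did not, at a ratio of 0.62.

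The share of each class in a library could not reach a p below 0.10 with 3 libraries against 3, by a two-sided exact permutation test over 20 arrangements. miRNAs took 5.16%, 3.75% and 4.23% of counts in wild type and 3.59%, 2.87% and 2.96% in uvr8-6, tRNA 11.9% ± 1.81 and 8.75% ± 0.267, snRNA 3.53% ± 0.167 and 2.68% ± 0.404, and rRNA 76.1% ± 2.03 and 80.9% ± 1.09 (SD, n = 3). For each of these 4 classes the groups did not overlap (exact p = 0.1, adjusted over 5 classes 0.125). As shares of counts without rRNA, the groups of miRNA, tRNA and snRNA overlapped, whereas those of snoRNA did not and were higher in uvr8-6. As a share of all counts snoRNA took 4.07% ± 0.46 and 4.52% ± 0.57, with groups that overlapped (exact p = 0.4). Since the shares of a library add to a whole, a lower share of one class and a higher share of another cannot be told apart.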

How the data were processed

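Small RNA was cloned with a Clontech SMARTer kit, per the labels' protocols, and reads went through FastQC and cutadapt, per the submitters' processing notes. The authors deposited raw read counts per locus, which were used here; no source used here names the aligner, counter or genome build. Another 272 deposited columns, of normalized or rlog values, were left out. RefSeq TAIR10.1 held 939 of 1008 AT identifiers. All 27 libraries in 9 groups were fitted with edgeR 4.0.16 under R 4.3.3: filterByExpr (minimum count 10), TMM, quasi-likelihood test with 18 residual degrees of freedom, Benjamini-Hochberg adjustment. DESeq2 1.42.0, other scalings and left-out libraries were alternatives. The fits were tested on simulated data. Replicates differed beyond counting error (chi-square per degree of freedom 6.24 to 8.7 over miRNA loci). Loci were named if called with at least 10 CPM or among the 10 with most miRNA counts; outside miRNAs, from the 10 highest and 10 lowest log2 changes of called loci without overlap; elsewhere by the 5 smallest p. Other snoRNA and tRNA loci, isotype sums and the family difference against the dark were chosen after their values were seen. Members and lists were chosen with earlier results of these data known.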

Additional observations from a re-analysis of the deposited data

How the results depend on the processing

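miRNA calls between uvr8-6 and wild type (18) numbered 10 with no filter on low counts and 10 with library sizes from all small RNAs, 23 with RLE factors, 24 with DESeq2 and 19 with the 6 libraries alone, and 9 to 15 when 1 library was left out. Family calls (20) numbered 10 with library sizes from all small RNAs and 10 to 16 when 1 library was left out. Calls over all small RNAs (71) numbered 145 with DESeq2, 27 with the 6 libraries alone and 25 to 41 when 1 library was left out. Calls against xpf-3 (23) numbered 15 with library sizes from all small RNAs and 11 to 21 when 1 library was left out (15 without uvr8-6 replicate 2, 11 without xpf-3 replicate 2). For the difference between the lower dose and the dark, all small RNAs gave 30 calls with DESeq2 and 0 to 2 when 1 library was left out (2 without wild-type dark replicate 2); families, added after seeing the data, gave 1 with RLE factors, 1 with DESeq2, 3 with no filter and 0 to 1 when 1 library was left out.

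MIR169A, not called, changed sign with no filter (-0.00838), the replicate block (-0.00381) and library sizes from all small RNAs (-0.0865), and ran from -0.184 to 0.268 when 1 library was left out. MIR158A, not called, changed sign with the 6 libraries alone (0.0245) and ran from -0.227 to 0.0817 when 1 library was left out. With the replicate block there were 17 miRNA calls, 72 calls over all small RNAs and 19 family calls. Libraries of the same number correlated at 0.459, -0.186 and -0.0781 in miRNA deviations from their group means. The highest correlations with a library of another number were -0.25, 0.331 and 0.426. With 3 libraries a group, these values cannot tell whether a number marks a shared batch. Class shares kept their direction in every alternative run, but with rRNA left out the groups of miRNA, tRNA and snRNA overlapped and those of snoRNA did not. Without 1 library the miRNA difference (uvr8-6 minus wild type) was -1.56 to -0.851 percentage points. The causes were not tested. Loci with few counts and identical copies limit what single loci can show.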
